A study of Mus musculus with 8 samples.

Results

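Müller glia (MG) and neurons sorted from the same P11 retinas were compared over the mouse miRNAs of the NanoString nCounter panel. Of the 566 mouse miRNAs counted, 171 were kept because their raw count lay above the mean plus 2 SD of the 8 negative control probes in at least 1 of the 2 fractions, and 395 were not. Both fractions came from Rlbp-CreER mice carrying a stop-flox-tdTomato reporter that were given tamoxifen (75 mg/kg) at P9 and P10. The labels put the age at P11 and elsewhere at P11/12. P11 MG were the cells of the brightest tdTomato+ gate, P11 neurons those of the non-fluorescent gate, and cells between the gates were discarded. RNA of 32 retinas was pooled into 1 sample per fraction, so there was no replicate and no test, and the intervals given cover counting error only. The Rlbp1 promoter that drives CreER is also active in pigmented and ciliary epithelium, which the study dissected away, and the non-fluorescent gate holds every retinal cell that did not recombine, with rods the most numerous. In these pooled samples, fewer cells of a type and less RNA per cell cannot be told apart.

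A miRNA is a short RNA that guides a silencing complex to messenger RNAs, mainly through its seed, bases 2 to 8 from the 5′ end. miRNAs with the same seed are grouped as a family because their predicted targets largely overlap. MG are the main glia of the retina; they are among the last cells to leave the progenitor pool, share many genes with those progenitors, and at this age are still maturing together with the rod photoreceptors.

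The mature sequences of the miRNAs on which the comparison turned are given from RefSeq (GRCm38.p6), with the seed in capitals. Of the 171 miRNAs kept, 124 were matched to a RefSeq mature sequence. The first set holds miRNAs with larger shares of the counts in P11 MG.
miR-204: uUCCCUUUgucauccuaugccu
miR-9: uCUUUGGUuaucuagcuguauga
miR-125b-5p: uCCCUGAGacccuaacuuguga
miR-99a: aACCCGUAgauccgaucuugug
miR-100: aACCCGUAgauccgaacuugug
miR-29a: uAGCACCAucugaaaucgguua
let-7c: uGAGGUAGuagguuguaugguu

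The second set holds miRNAs with smaller shares in P11 MG, and 3 of them (miR-211, miR-29c and let-7g) carry the seed of a miRNA of the first set.
miR-211: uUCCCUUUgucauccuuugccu
miR-29c: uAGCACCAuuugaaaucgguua
let-7g: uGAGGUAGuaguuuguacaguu
miR-181a: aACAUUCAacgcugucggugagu
miR-25: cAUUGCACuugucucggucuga
miR-183: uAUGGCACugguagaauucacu
miR-96: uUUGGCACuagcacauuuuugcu
miR-182: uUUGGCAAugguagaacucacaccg

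The mouse miRNAs had 484305 raw counts in all in P11 MG, against 273572 in P11 neurons. The mean of the negative controls, 50.4 in P11 MG and 42.5 in P11 neurons, was subtracted, and each miRNA is given as its share of the summed subtracted counts of its fraction. A value at or below background was set to 2 SD of the negative controls before a ratio was formed, and the ratio is then written as a bound. The ligation controls, synthetic RNAs that pass through the tag ligation with the sample, were low in P11 neurons: the 3 positive ones had 19166, 6140 and 635 counts in P11 MG, against 4966, 1774 and 148 in P11 neurons. The 6 positive controls of the hybridisation did not show this, having geometric means of 1791 counts (P11 MG) and 1860 (P11 neurons). Raw Actb counts were 9301 in P11 MG and 4431 in P11 neurons, B2m 629 and 38, Gapdh 936 and 1440, and Rpl19 1090 and 1464. The choice of scaling therefore moves every log2 ratio between the fractions by the same amount. Relative to shares this shift was 0.15 with the 4 housekeeping mRNAs summed, -0.22 with Actb, 1.51 with Gapdh, 1.31 with Rpl19, 0.91 with the positive controls, 0.41 with the top 100 miRNAs, 0.22 without the top 3 miRNAs of each fraction and -1.22 with the ligation controls. Of the 171 miRNAs, 43 kept their direction under all 8 of these scalings, namely the 18 with a log2 ratio of shares above 1.22 and the 25 below -1.51. The part of ligation efficiency in the ratios was not tested.

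**Figure D1:**
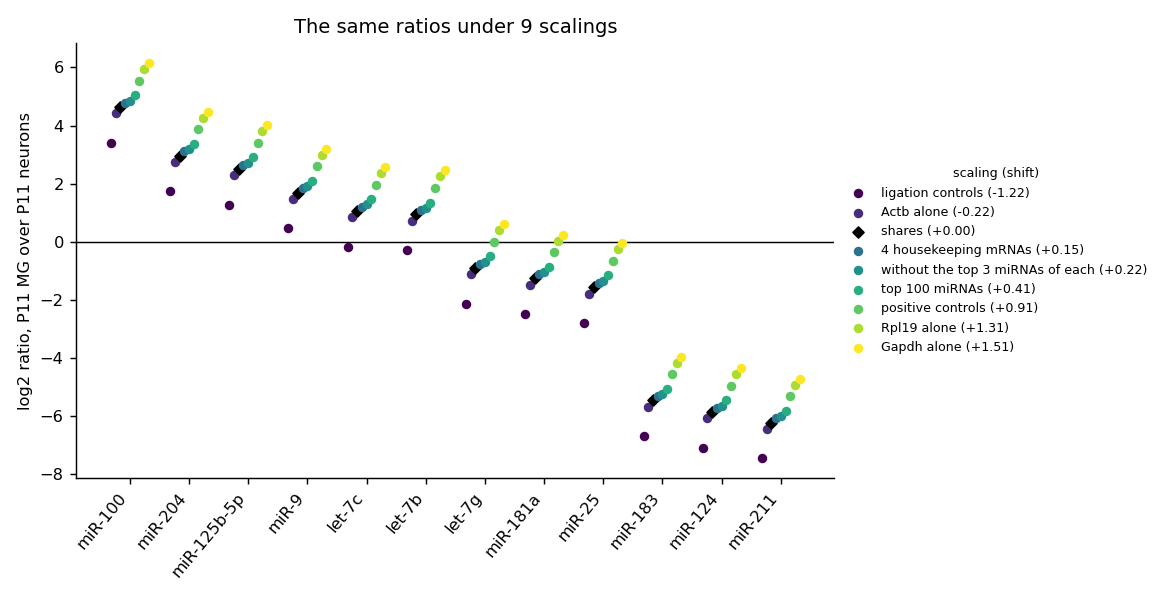
Log2 ratio, P11 MG over P11 neurons (vertical axis), of 12 miRNAs under shares (black diamonds) and 8 other scalings (colours), each with its shift from shares in the legend. miR-204, miR-9, miR-125b-5p and miR-100 stay above 0 and miR-183, miR-124 and miR-211 below 0 under all 9, while let-7c falls to -0.17 with the ligation controls and miR-181a is above 0 with Gapdh (0.25) or Rpl19 (0.041).

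By share, 24 of the 171 miRNAs (14.0%) were at least 2 times higher in P11 MG, 9 of them as bounds, and 41 (24%) were at least 2 times lower, 11 of them as bounds. The median log2 ratio over the 171 was -0.30. The higher miRNAs held 57.8% of the counts of P11 MG and 13.8% of those of P11 neurons, and the lower ones held 10.0% in P11 MG and 51.8% in P11 neurons. The 106 miRNAs in neither set held 31.3% in P11 MG and 33.2% in P11 neurons. The higher and lower sets were chosen by the ratio of shares, so their summed shares had to differ in these directions. Summed shares also weigh abundant miRNAs most, so they do not show whether the difference lay mainly in abundant miRNAs. Above background in both fractions were 107 miRNAs, with 42 in P11 MG only and 22 in P11 neurons only, and 16 of the top 20 miRNAs were shared. Over the 107, which were counted with 1 probe set in 1 pool per fraction, Pearson's r of the log2 shares was 0.80 and Spearman's rho 0.77.

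**Figure D2:**
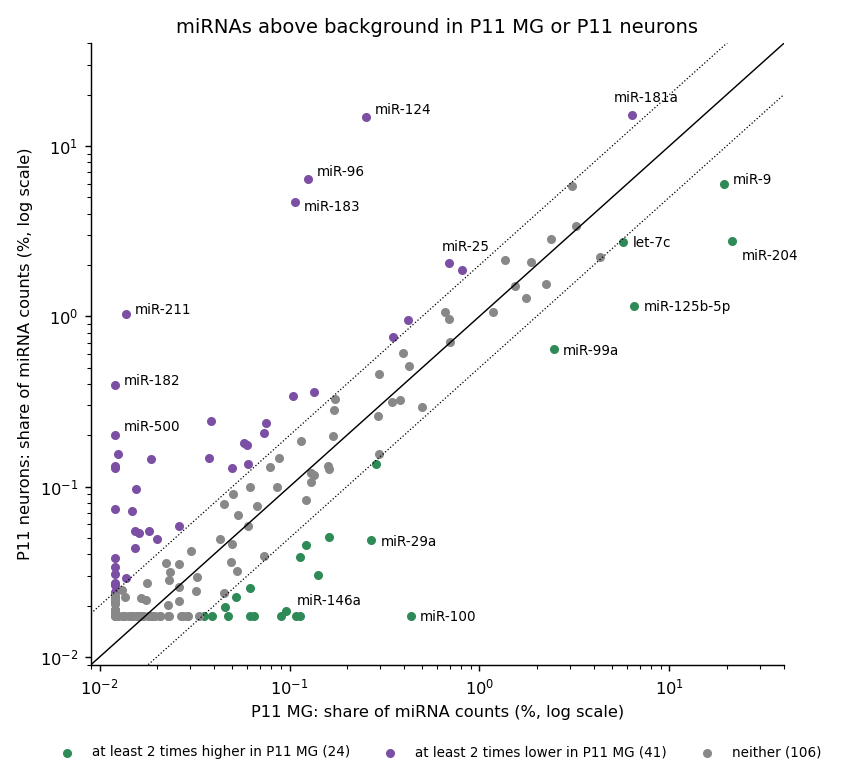
Share of miRNA counts in P11 MG (horizontal, log scale, percent) against P11 neurons (vertical, log scale, percent) for the 171 miRNAs kept; values at or below background are drawn at background (0.0120% in P11 MG, 0.0174% in P11 neurons). The solid line marks equal shares and the dotted lines 2 times; 24 miRNAs lie at or below the lower dotted line and 41 at or above the upper one, with miR-124, miR-96, miR-183 and miR-211 farthest from equality on the neuronal side.

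The P11 MG pool was dominated by few miRNAs. miR-204, miR-9 and miR-125b-5p together made up 47.3% of its counts and 9.90% of those of P11 neurons. In P11 neurons the leading miRNAs were miR-181a, miR-124 and miR-96, which held 6.70% in P11 MG and 36.3% in P11 neurons. The 10 most abundant miRNAs held 74.8% of the counts in P11 MG and 64.6% in P11 neurons, and 25 miRNAs in P11 MG and 33 in P11 neurons made up 90% of the counts. By share, the abundant let-7d, let-7i and let-7e differed little, with log2 ratios of -0.09, 0.04 and -0.01. This depended on the scaling, since let-7d was at 1.43 with Gapdh alone and -1.31 with the ligation controls.

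**Figure D3:**
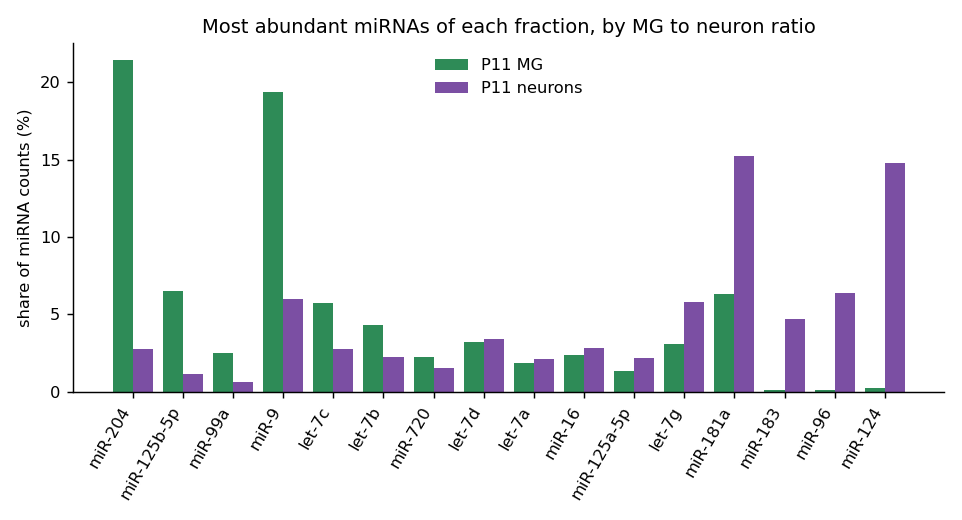
Share of miRNA counts (percent) of the most abundant miRNAs of the fractions, in P11 MG (green, left bar of each pair) and P11 neurons (purple, right bar), ordered by their ratio; bars are single pooled samples without error bars. miR-204 and miR-9 tower in P11 MG (21.4% and 19.3%), miR-181a and miR-124 in P11 neurons (15.2% and 14.8%), and let-7d is level (3.20% and 3.40%).

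miR-204, which lies in an intron of Trpm3 and is known from the eye for roles in lens, pigmented epithelium and retinal development, had 99116 raw counts in P11 MG and 7064 in P11 neurons. Its share was 21.4% in P11 MG and 2.75% in P11 neurons, 7.80-fold higher in P11 MG (counting interval 7.57 to 8.03). miR-9, a regulator of neural progenitors and of neuron formation, had 89452 counts in P11 MG and 15366 in P11 neurons, a 3.22-fold higher share in P11 MG (3.15 to 3.30). Even so, it ranked 4 in P11 neurons, with 6.00% of their counts. miR-125b-5p, a homologue of the worm timing miRNA lin-4, had 30204 counts in P11 MG and 2984 in P11 neurons, 5.67-fold higher by share (5.40 to 5.94). These 3 were taken as MG markers, and all were higher in the fraction labelled MG under every scaling. The study picked them out on the adult fractions of the same series, so they are no separate check of the label. miR-9 is also listed among the neuronal miRNAs below.

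miR-99a had 11476 counts in P11 MG and 1675 in P11 neurons, 3.87-fold higher by share (3.62 to 4.14). miR-100, which differs from it by 1 base (A16U from miR-100 to miR-99a, counted from the 5′ end), had 2053 counts in P11 MG and 62 in P11 neurons, where it was at background. By share P11 MG held at least 24.9-fold more of it, the largest ratio on that side. The miR-100 count was 17.5% of the miR-99a count in P11 MG and at most 2.73% in P11 neurons, with miR-100 set to its background there. miR-29a had 1297 counts in P11 MG and 166 in P11 neurons, 5.58-fold higher by share (4.31 to 7.35).

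Smaller miRNAs followed in the same direction. miR-146a, induced by inflammatory signalling in many cells, had 576 counts in P11 MG and 66 in P11 neurons, a share at least 6.53-fold higher in P11 MG. For miR-1927 the counts were 548 and 52, at least 6.18-fold higher, and miR-1960 had 495 and 90, 5.17-fold higher (3.26 to 9.07). miR-322, which shares the seed of miR-15 and miR-16, had 700 counts in P11 MG and 120 in P11 neurons, 4.63-fold higher (3.28 to 6.82). miR-23a had 794 in P11 MG and 171 in P11 neurons, 3.20-fold higher (2.44 to 4.26). miR-152 had 467 raw counts in P11 MG and 86 in P11 neurons, but the authors' normalized value for P11 MG does not correspond to that raw count, and by it miR-152 was at background in both fractions. Such a mismatch was found for 19 of the 171 miRNAs in P11 MG and 0 in P11 neurons, and is given where one of them is named.

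Of the 7 miRNAs that the study calls mGliomiRs, 6 were at least 2 times higher in P11 MG and 0 lower, beside 14.0% higher and 24% lower of all miRNAs kept. Their median log2 ratio was 1.95, beside -0.30 over all miRNAs kept. The study chose the list on the adult fractions of the same series. The exception was miR-135a, with 8193 counts in P11 MG and 3305 in P11 neurons and a 1.38-fold higher share (1.30 to 1.46), which turned to a log2 ratio of -0.76 with the ligation controls.

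miR-124, the most abundant neuronal miRNA of the central nervous system, had 1220 counts in P11 MG and 37741 in P11 neurons. Its share was 0.253% in P11 MG and 14.8% in P11 neurons, 58.3-fold lower in P11 MG (54.5 to 62.5). The miR-183/96/182 cluster, known for its expression in photoreceptors and other sensory cells, gave values of the same kind. miR-96 had 629 counts in P11 MG and 16345 in P11 neurons, 51.0-fold lower (46.1 to 56.5), and miR-183 had 543 in P11 MG and 12081 in P11 neurons, 44.2-fold lower (39.6 to 49.5). miR-182 had 95 counts in P11 MG, at background, and 1046 in P11 neurons, at least 32.8-fold lower. miR-124 and the cluster together took 0.495% of the counts in P11 MG and 26.3% in P11 neurons.

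miR-211, which lies in an intron of Trpm1, a channel of bipolar cells and melanocytes, had 114 counts in P11 MG, just above its background threshold of 106, and 2680 in P11 neurons. The share was 75.0-fold lower in P11 MG (53.0 to 114). This was the largest ratio by share that is not a bound, but the low count decides its rank: with no background subtraction its log2 ratio was -5.38, and those of miR-124 (-5.78) and miR-96 (-5.52) were larger in size. The shares of miR-211, miR-124, miR-96 and miR-183 in P11 MG were 1.33%, 1.71%, 1.96% and 2.26% of their shares in P11 neurons. The 4 are the lowest such values among miRNAs above background in both fractions, and those of miR-136, miR-149 and miR-132 were 8.05%, 12.8% and 15.9%. In the other direction, abundant miRNAs of P11 MG were taken, which are not the 4 lowest on that side. The shares of miR-204, miR-125b-5p, miR-99a and miR-9 in P11 neurons were 12.8%, 17.7%, 25.9% and 31.0% of those in P11 MG. For miR-29a the value was 17.9%, and miR-100, at background in P11 neurons, had a log2 ratio of at least 4.64. The part of neuronal RNA carried into the MG gate, or of glial RNA in the neuron gate, was not tested.

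Other miRNAs followed miR-124. Of 13 miRNAs listed as neuronal in the central nervous system, 8 were kept, of which 6 were at least 2 times lower in P11 MG and 1, miR-9, higher, beside 24% and 14.0% of all miRNAs kept. Of the 8, 4 were above background only in P11 neurons and so could not be higher in P11 MG, and 3 of the 6 lower ones are among them. The median of the 8 was -1.15 and changed sign with Gapdh or Rpl19 alone. miR-132, regulated by neuronal activity, had 122 counts in P11 MG and 291 in P11 neurons, 6.28-fold lower in P11 MG (4.10 to 10.1). miR-218 had 32 in P11 MG, at background, and 230 in P11 neurons, at least 6.12-fold lower. miR-500 had 50 counts in P11 MG, at background, and 558 in P11 neurons, at least 16.8-fold lower, and miR-136 had 108 in P11 MG and 438 in P11 neurons, 12.4-fold lower (8.04 to 20.8). The P11 MG counts of miR-132 and miR-136 lay close to the background threshold of 106, and their intervals leave out the spread of the background. Among the abundant miRNAs, miR-181a had 29255 counts in P11 MG and 38866 in P11 neurons, a 2.41-fold lower share (2.35 to 2.46), though it still ranked 4 in P11 MG. Its log2 ratio was above 0 with Gapdh or Rpl19 alone.

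The seeds divided the fractions differently from the single miRNAs. Among the 124 miRNAs matched to a sequence, 44 shared a seed with another and fell into 14 groups, whose members' log2 ratios spread over a median of 2.30. In 7 groups the spread was at least 2. For 1 of them this rests on miR-152, a bound whose raw count in P11 MG the normalized value does not match. Its seed partners miR-148a and miR-148b differed by 1.02. The spreads also use miR-30a, miR-26a and miR-26b, which have the same mismatch. In 3 groups 1 member was at least 2 times higher in P11 MG and another at least 2 times lower. The 47 miRNAs without a matched sequence entered no group. The 3 groups were those of miR-204 and miR-211, miR-29a and miR-29c, and miR-322 and miR-15a.

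**Figure D4:**
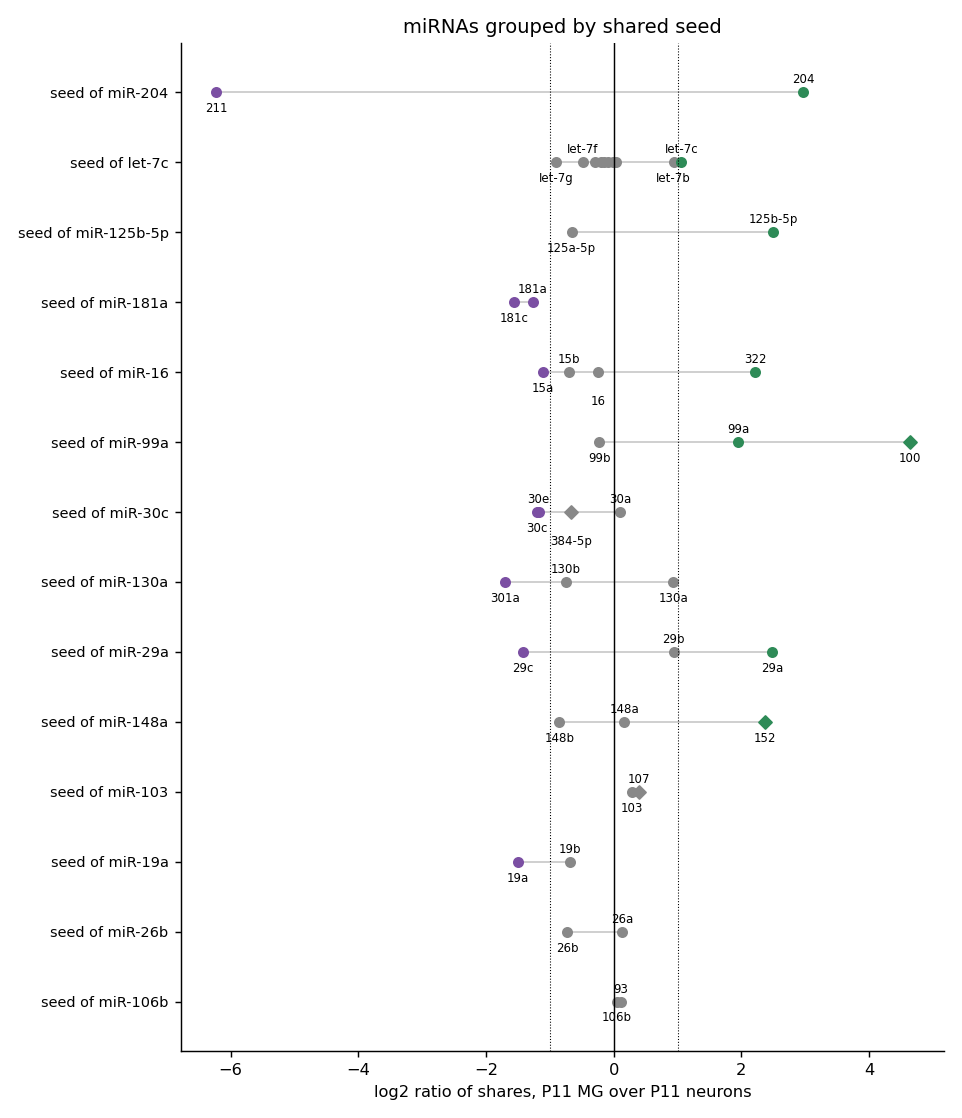
Log2 ratio of shares, P11 MG over P11 neurons (horizontal), for the 44 sequence-matched miRNAs in 14 groups with a shared seed (rows, each named by its most counted member in P11 MG); diamonds are bounds, green and purple points are at least 2 times higher or lower in P11 MG, and dotted lines mark 2 times. The row of miR-204 and miR-211 is the widest (2.96 and -6.23), while the let-7 row runs only between -0.91 and 1.06; its 4 outermost members are named. miR-152, miR-30a, miR-26a and miR-26b are drawn from raw counts that the normalized values of P11 MG do not match.

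miR-204 and miR-211 differ by 1 base, A17U from miR-204 to miR-211, and their log2 ratios of 2.96 and -6.23 differed by 9.19. The miR-211 count was 0.0642% of the miR-204 count in P11 MG and 37.6% in P11 neurons. Their common seed took 21.5% of the counts in P11 MG and 3.78% in P11 neurons, and in P11 MG nearly all of it was miR-204. miR-29a and miR-29c also differ by 1 base (C10U from miR-29a to miR-29c). miR-29c had 672 counts in P11 MG and 959 in P11 neurons, 2.67-fold lower in P11 MG (2.30 to 3.10), opposite to miR-29a. The 3 miR-29 members together held 0.450% of the counts of P11 MG, against 0.431% in P11 neurons. By share the sum over the seed was thus level, while miR-29a and miR-29c differed in opposite directions. The ratio of the sums moves with the scaling as each single ratio does. miR-29c was no longer lower in P11 MG with Gapdh alone.

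The let-7 seed, with 10 members, took 21.2% of the counts in P11 MG and 19.5% in P11 neurons. let-7c had 26463 counts in P11 MG and 7048 in P11 neurons, 2.08-fold higher by share (2.01 to 2.16), and let-7b 19881 and 5755, 1.92-fold higher (1.84 to 2.00). let-7g had 14317 counts in P11 MG and 14829 in P11 neurons, a 1.88-fold lower share in P11 MG (1.82 to 1.94). With the ligation controls let-7c (-0.17) and let-7b (-0.28) were below 0, and let-7g was above 0 with Gapdh (0.61) or Rpl19 alone (0.40) and at 0.0030 with the positive controls. The let-7 members are known for rising as progenitors stop dividing, and the median of the 9 in the let-7 list was -0.09, changing sign under 6 of the 8 scalings. The seed of miR-125a-5p and miR-125b-5p took 7.89% in P11 MG, against 3.30% in P11 neurons. Within it miR-125a-5p was 1.58-fold lower and miR-125b-5p higher in P11 MG. The miR-99/100 seed took 3.08% in P11 MG and 0.844% in P11 neurons.

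Where miRNAs lie in the genome was set beside these values, taking mature miRNAs on the same strand within 60 kb of each other as neighbours (GRCm38.p6). On chromosome 16, between 77598940 and 77646300, miR-99a, let-7c and a copy of miR-125b-5p had log2 ratios of 1.95, 1.06 and 2.50, and on chromosome 9 miR-100 and the other copy of miR-125b-5p lie in Mir100hg. The paralogous stretch on chromosome 17, between 17830194 and 17830876, holds miR-99b, let-7e and miR-125a-5p, with -0.22, -0.01 and -0.66. Each of the 3 families thus had a member on chromosome 16 that was at least 2 times higher and a member on chromosome 17 that was not. The probe of a miRNA with several copies, such as miR-125b-5p, let-7c or miR-29b, does not say which copy gave the counts.

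**Figure D5:**
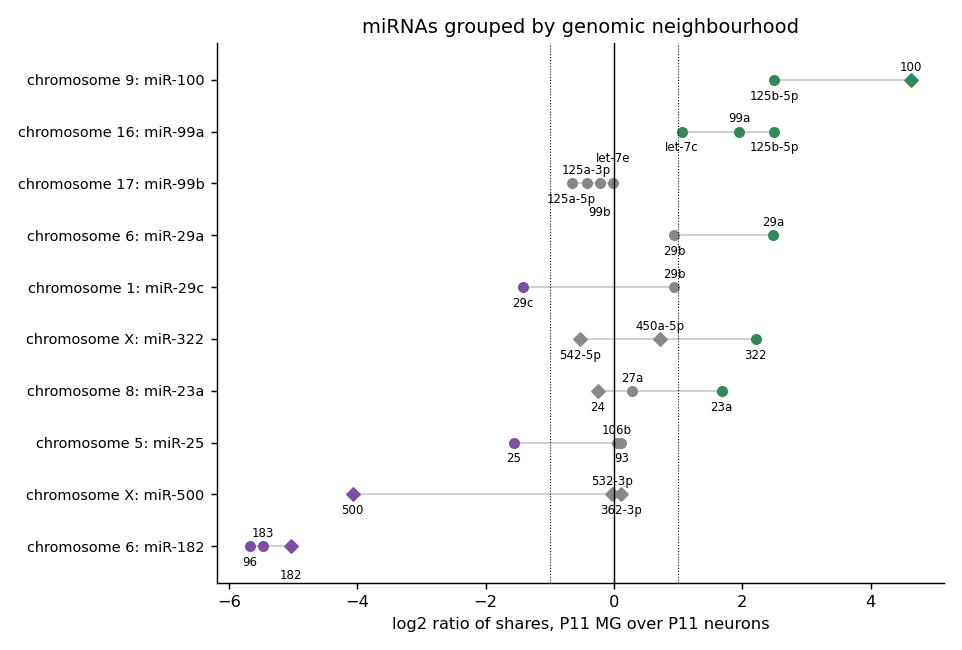
Log2 ratio of shares, P11 MG over P11 neurons (horizontal), for 10 groups of neighbouring miRNAs (rows, named by chromosome and 1 member). The 10 were chosen and do not cover every group of neighbours. Diamonds are bounds, colours as for at least 2 times higher (green) or lower (purple) in P11 MG. The rows of miR-100 and miR-99a lie above 1, that of miR-99b between -0.66 and -0.01, and that of miR-182, miR-96 and miR-183 between -5.67 and -5.03; miR-24 and miR-542-5p are drawn from raw counts that the normalized values of P11 MG do not match.

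miR-182, miR-96 and miR-183, between 30165962 and 30169732 on chromosome 6, had log2 ratios within 0.64 of each other. Some neighbours elsewhere stayed close too, as miR-191 and miR-425 did (spread 0.38) and let-7b and let-7c (0.12), and others came apart. On chromosome 5, miR-25, miR-93 and miR-106b lie within 476 bases in an intron of Mcm7, a replication gene; miR-25 had 3250 counts in P11 MG and 5274 in P11 neurons, 2.96-fold lower in P11 MG (2.78 to 3.15), against log2 ratios of 0.12 for miR-93 and 0.05 for miR-106b. On chromosome X in Clcn5, miR-500 was at -4.07 as a bound, beside values near 0 for miR-362-3p and miR-532-3p, which were bounds too. miR-23a was at 1.68 and miR-27a, its neighbour on chromosome 8, at 0.28.

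The miR-17-92 and paralog clusters, of which miR-17-92 is known for promoting progenitor division, had 7 members kept. Of these, 0 were higher and 3 lower in P11 MG, beside 14.0% and 24% of all miRNAs kept. The lower ones were miR-25, miR-19a and the joint probe of miR-20a and miR-20b, too few members to set apart from the 24%. The median of the 7, -0.69, changed sign with Gapdh, Rpl19 or the positive controls. Of the miR-15/16 family, 5 were kept, 1 higher and 1 lower, numbers close to the 14.0% and 24%. By share miR-15a, with 1678 counts in P11 MG and 1984 in P11 neurons, was 2.16-fold lower. Its log2 ratio was above 0 with Gapdh (0.40) or Rpl19 alone (0.20). miR-16 had 11079 in P11 MG and 7279 in P11 neurons, 1.19-fold lower by share. In the miR-30 family 2 of 5 were lower, too few members to set apart from the 24%, namely miR-30c with 3776 counts in P11 MG and 4799 in P11 neurons (2.31-fold lower) and miR-30e with 171 and 193 (2.26-fold lower). miR-30a, at 0.10, is among the miRNAs whose raw and normalized values in P11 MG do not match, and was at -0.61 in the normalized values.

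The miRNAs of the imprinted Dlk1-Dio3 locus on chromosome 12, which are transcribed from the maternal chromosome and are common in the brain, were mostly low. Of 50 listed, 15 were kept, with 0 higher and 9 at least 2 times lower in P11 MG, beside 24% of all miRNAs kept. Of the 15, 6 were above background only in P11 neurons, and 3 of the 9 lower ones are among them. The median of the 15 was -1.31 and changed sign with Gapdh or Rpl19 alone. miR-382 had 225 counts in P11 MG and 420 in P11 neurons, 3.91-fold lower (2.97 to 5.19), and miR-495 had 125 and 179, 3.31-fold lower (2.04 to 5.55). miR-136, the most counted member in P11 neurons, held 0.0125% of the counts in P11 MG, near the background share of 0.0120%, and 0.155% in P11 neurons.

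Among markers of other cells, miR-211, listed for pigmented epithelium, held the largest share, 1.03% in P11 neurons. The others each held at most 0.129% of the counts in either fraction. miR-451, the erythroid miRNA, had 34 counts in P11 MG, at background, and 371 in P11 neurons, at least 10.7-fold lower in P11 MG, and the other red blood cell miRNAs of that list were not kept. miR-126-3p, of endothelium, had 360 in P11 MG and 238 in P11 neurons, a log2 ratio of -0.19. Of 6 listed for blood cells and microglia 4 were kept: beside miR-146a, miR-142-3p had 205 counts in P11 MG and 56 in P11 neurons, miR-142-5p 259 and 244, and miR-150 119 and 70. Their log2 ratios of shares were at least 0.94, -0.81 and at least -0.23, with miR-142-3p and miR-150 at background in P11 neurons. The summed raw counts of that list, not corrected for depth or background, were 1211 in P11 MG, against 451 in P11 neurons. By share the list held 0.207% in P11 MG and 0.104% in P11 neurons. Its other members miR-223 and miR-155 were at background in both, and the part of such cells in the miR-146a value was not tested. miR-221 and miR-222, listed for pigmented epithelium beside miR-211, were at background in both fractions. miR-145, of mural cells, had 83 counts in P11 MG, at background, and 91 in P11 neurons, just above the threshold of 87.0 there. For miR-338-3p, of oligodendrocytes, the counts were 190 and 149, a log2 ratio of -0.46. The other members listed for endothelium, mural cells and oligodendrocytes were not kept, and 0 of 5 muscle miRNAs were kept.

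Adult MG and adult neurons, sorted in the same way and pooled from 40 retinas, were set beside these values. The adult mice were given tamoxifen at the same dose per body weight, also on consecutive days. They received it at a later age than P11, so the ages also differ in when the reporter was induced. In the adult pools 199 miRNAs were kept, and MG exceeded neurons at least 2 times for 23 of them (11.6%) and fell short by as much for 91 (45.7%). Of the 24 miRNAs higher in P11 MG, 17 were also at least 2 times higher in adult MG and 0 at least 2 times lower. Of the 41 lower in P11 MG, 40 were kept in the adult pools, 35 of them at least 2 times lower in adult MG and 0 higher by as much. The log2 ratios of single miRNAs were not the same. miR-204 was at 2.96 at P11 and 4.96 in the adult, miR-9 at 1.69 and 3.53, and miR-125b-5p at 2.50 and 3.92. miR-135a was at 0.46 at P11 and 3.84 in the adult, with a share in MG of 1.76% at P11 and 1.64% in the adult, and in neurons of 1.28% and 0.115%. For miR-181a it was -1.27 and -0.16, for miR-146a at least 2.71 and at least 0.17, and for miR-322 it was 2.21 and at least 0.17. miR-146a and miR-322 each held only 0.0127% of the counts in adult MG and were at background in adult neurons. The controls were balanced differently at the 2 ages. The most counted ligation control had 19166 counts in MG and 4966 in neurons at P11, and 12831 and 12313 in the adult. Actb had 9301 and 4431 at P11, and 7024 and 1025 in the adult. Whether the ages differ was not tested, since each value is 1 pool.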

How the data were processed

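The panel ligates each miRNA to a tag and counts barcoded probes bound to it. The deposited raw counts are as the authors obtained them, unnormalized, and carry the main results. The deposited normalized values, read as a score, are raw counts less the negative controls scaled by the authors with control and housekeeping probes, and served as an alternative. The mean of 8 negative controls was subtracted, and values at or below 2 SD were set there. With 1 sample per condition no test was run. Exact Poisson 95% limits of raw counts gave each interval, the lower limit of 1 fraction over the upper of the other, so ratio intervals are wider than 95%. Depth was 484305 counts in P11 MG and 273572 in P11 neurons, and these limits cover counting error only.

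The miRNAs, the 22 lists and the comparisons were chosen with earlier results of these data known. Named miRNAs are the 15 most abundant per fraction, the 12 largest ratios each way with at least 200 counts in either fraction, the 4 most counted of each list and the 5 largest rank differences each way within the top 60. Other miRNAs named were chosen after their values were seen, for their place in a family, cluster or marker list. Older probe names were matched to arms by hand. Alternatives were 8 scalings, 4 settings of background or count filter, 2 folds and the normalized values. The 2 cultured MG samples were not used here. Scripts ran in Python 3.11.15; scipy 1.17.1 gave the limits, matplotlib 3.10.9 the plots, and pandas 2.3.3 with numpy 2.4.6 the rest.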

Additional observations from a re-analysis of the deposited data

Results flagged for a closer look

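The panel also holds 33 probes for viral miRNAs, on which no comparison rests. The probe for mcmv-miR-m01-2 had 83 counts in P11 MG and 88 in P11 neurons, where it was above background by 1 count (threshold 87.0). The 33 probes had medians of 52 in P11 MG and 49 in P11 neurons and highest counts of 99 and 88.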

How the results depend on the processing

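The counts of miRNAs at least 2 times higher and lower in P11 MG, 24 and 41 by share, depended on the scaling: 99 and 13 with Gapdh alone, 87 and 13 with Rpl19 alone, 63 and 15 with the positive controls, and 8 and 122 with the ligation controls. Values below background as they stand gave 43 higher, a 1.5-fold limit 69 lower and a 3-fold limit 14 higher and 22 lower. Among named miRNAs at least 2 times different by share, directions turned with Gapdh alone for miR-181a (0.25), miR-30c (0.31), miR-129-3p (0.35), miR-433 (0.21), miR-15a (0.40), the joint miR-20a and miR-20b probe (0.34), miR-19a (0.013) and miR-29c (0.10). With Rpl19 alone they turned for miR-181a (0.041), miR-30c (0.099), miR-129-3p (0.15), miR-433 (0.0017), miR-15a (0.20) and the joint miR-20a and miR-20b probe (0.13), and with the ligation controls for let-7c (-0.17). The 30 named miRNAs under 2-fold all changed sign under at least 1 scaling (17 each with Gapdh, Rpl19 and the positive controls, 13 with the ligation controls). Each scaling shifts every log2 ratio by a constant. Scaling by B2m alone was not run, since it was at background in P11 neurons. No paired analysis was possible because each condition is 1 pooled sample.

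With the authors' normalized values, 65 of 68 named miRNAs kept their log2 ratio within 0.1; miR-26a, miR-26b and miR-30a did not. Of the 19 miRNAs whose P11 MG values differ between the tables, by over 2 counts and over 1%, miR-152, miR-709 and miR-674 were higher in P11 MG by raw counts and not by normalized values, and miR-1187 the reverse (-0.81 and 2.11). At this depth miRNAs under 106 raw counts in P11 MG or 87.0 in P11 neurons are not distinguishable from background.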
